A study of Mus musculus with 18 samples.

Results

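Microglia purified from the brains of female mice labelled Chd8 knockout (KO) were compared with microglia of female mice labelled wild type (WT). The comparison used the 8 libraries whose titles name females, 4 of KO and 4 of WT, out of 18 libraries in all, and was made across 10948 genes. The other 10 libraries were male, 5 KO and 5 WT. They entered the same model so that all groups shared 1 estimate of the spread, and they served as the comparison for the female effect. The labels give species, tissue, cell type, sex, genotype and a replicate number, and every title carries the letters HX, whose meaning they do not explain. They do not give age, strain, treatment, the number of altered Chd8 copies, the cells in which the gene was altered, the removed exons or the way the cells were purified, so the KO is used here as a label only. They also do not say that the libraries came from separate animals, and p-values measure the spread between these libraries, which may in part be technical.

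Microglia, the macrophages that reside in the brain parenchyma, survey the tissue, clear debris and synapses, and in disease or injury shift from a homeostatic program towards an activated one in which lysozyme, cystatin F and MHC class II genes are higher. Chd8 encodes an ATP-dependent chromatin remodeler of the chromodomain helicase family, a high-confidence autism risk gene that has been tied to Wnt signalling, p53 control and the expression of cell cycle genes in other cells. The assay was MARS-seq in its bulk version. It reads the polyadenylated ends of transcripts and gives every captured molecule a random tag (unique molecular identifier, UMI), so that a count is a number of molecules and not of sequenced copies. Levels are given as CPM, the count of a gene scaled to a common library size with edgeR's TMM factors for single genes and by the library total for summed lists.

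The libraries differed in depth and in the level of transcripts that mark other cells. UMI totals ran from 435838 to 3433078 in female KO and from 458075 to 1841384 in female WT, and 1 UMI was worth 2.29 CPM in KO replicate 33 and 2.18 CPM in WT replicate 34, the 2 libraries under 500000 UMIs, against 0.291 to 0.758 CPM in the other 6. Reads sequenced for each UMI took values in 3 ranges with gaps between them (1.79 to 1.89, 2.94 to 3.12 and 5.52 to 7.26), and 3 of the 4 WT libraries (34, 31 and 30) but only KO replicate 33 were in the highest range, so the range and the genotype moved together. The common biological coefficient of variation was 23.9% in the 8 female libraries fitted alone, 13.2% in the 10 male libraries and 17.8% over all. The main tests used the spread over all libraries, which was smaller than that of the female libraries alone. Adjusted p-values of the female contrast may therefore be too low. The 37 microglial identity genes summed to 137000 to 176000 CPM in KO and 132000 to 153000 CPM in WT. Cst3 was a large part of this, at 31000 to 83500 CPM in KO and 43900 to 53500 CPM in WT on the TMM scale. No reference level was compared, so the sum does not check the label of microglia. Xist was at 25.7 to 105 CPM in female and at most 0.869 CPM in male libraries, while KO replicate 33 also held 4 UMIs each of the Y-linked Ddx3y and Uty. These equal 10.3 CPM of each, inside the male range for Ddx3y (1.09 to 28.9 CPM) and above it for Uty (1.06 to 3.19 CPM), and its 2.57 CPM of Kdm5d (1 UMI) lay under the male range (5.97 to 10.3 CPM). Eif2s3y, also Y-linked, was at no more than 1.03 CPM in any female library, under the male range (7.47 to 22 CPM). Ddx3y was above 0 in every female KO library (lowest 0.307 CPM, 9 UMIs over all female libraries) and 0 in every female WT library. The count of called genes is given with and without KO replicate 33.

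Transcripts of blood leukocytes were uneven between libraries. The 16 neutrophil markers summed to 6070, 1710, 1700 and 3270 CPM in KO replicates 33, 16, 1 and 7, and to 8770, 3810, 3150 and 17100 CPM in WT replicates 34, 39, 31 and 30. The 14 monocyte markers summed to 337, 175, 243 and 252 CPM in KO and to 1050, 755, 318 and 1020 CPM in WT, in the same order of libraries. WT replicate 31 was thus inside the KO range for monocytes, and WT replicate 30 stood highest for neutrophils. Border-associated macrophage markers summed to 1210 to 1400 CPM in KO and 1220 to 1610 CPM in WT, and neuronal (30.3 to 93.2 against 31.8 to 127 CPM), oligodendrocyte lineage (202 to 263 against 174 to 306 CPM) and lymphocyte markers (862 to 1070 against 729 to 912 CPM) overlapped between the groups. Astrocyte markers reached 257 CPM in KO and 131 CPM in WT, and endothelial and mural sums were 29.8 to 38.4 CPM in KO and 45.2 to 50 CPM in WT, low levels that did not overlap. Vtn, a pericyte-expressed matrix protein, had the lowest p of that list, at 0 to 1.84 CPM in KO and 4.0 to 17.9 CPM in WT, and did not pass (edgeR adjusted p = 0.0662). The part of these cell types in the results was not tested.

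**Figure D1:**
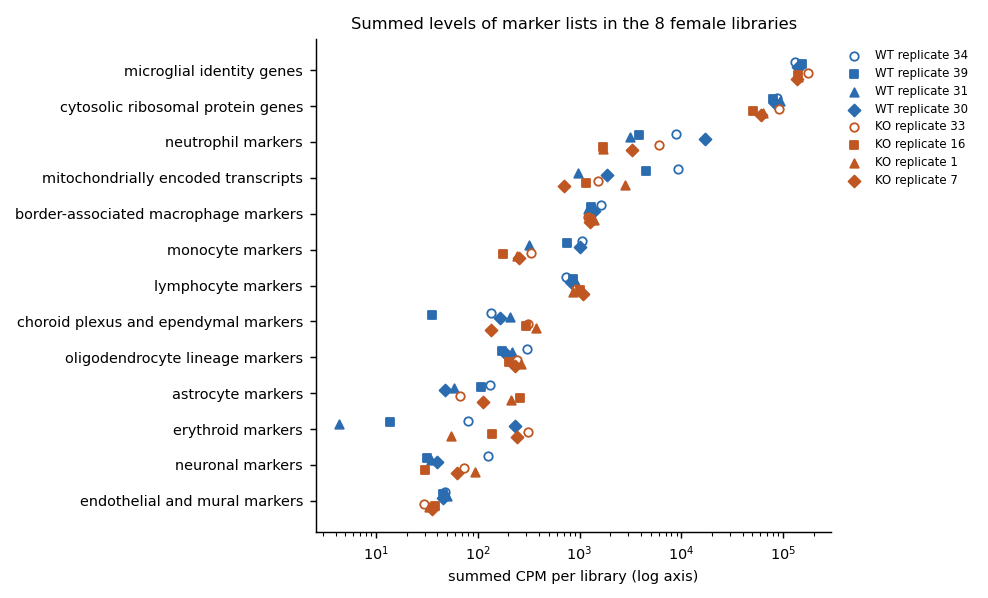
Summed CPM (log axis) of each marker list in the 8 female libraries, KO in orange and WT in blue, with open symbols for the 2 libraries under 500000 UMIs. Microglial identity genes lie between 132000 and 176000 CPM in every library, while neutrophil markers run from 1700 to 17100 CPM.

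Chd8 itself was measured at 139, 116, 117 and 121 CPM in KO replicates 33, 16, 1 and 7 and at 186, 132, 181 and 164 CPM in WT replicates 34, 39, 31 and 30. Values of single genes are given in this order of libraries from here on. KO replicate 33 lay above WT replicate 39, and the other libraries did not overlap. The log2 fold change was -0.44 ± 0.12 (SE) and missed the threshold (Benjamini-Hochberg adjusted p = 0.0547 in edgeR's quasi-likelihood test), with adjusted p between 0.0196 and 0.165 when each female library was left out in turn. It passed in 3 of 22 alternative fits, and was -0.24 with the range of reads per UMI as a factor (edgeR adjusted p = 0.41). Within the middle range it was -0.15, where the only female WT library was replicate 39, the lowest WT library for Chd8. Ends of transcripts can still be counted when an exon elsewhere has been removed, so this level does not check the label.

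Of the 10948 tested genes, 293 passed at an adjusted p under 0.05, which is 2.68%. In KO, 93 genes rose and 200 fell, and 170 of them changed at least 2-fold. At a mean log2 CPM of at least 3 the largest called falls were granule and myeloid genes of blood leukocytes, and the falls also held ribosomal proteins, the Tmsb10 and S100 genes and MHC class II. The called rises held 5 cell cycle genes, Chek2 and Cdkn1a, Jun and Egr1, and single genes of other functions. Without the 2 libraries under 500000 UMIs, 462 genes passed (4.17% of those tested, 147 higher and 315 lower). These included 264 of the 293, or 90.1% of the first list and 57.1% of the second. All 293 kept their sign, but they had been chosen by p-value in a fit that shares these libraries.

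The count rested on single libraries and on the shared spread. Without WT replicate 30, 71 genes passed (26 higher, 45 lower), and without KO replicate 33, 680 passed. Leaving out KO replicate 16, 1 or 7 or WT replicate 34 left 110, 116, 95 and 150 calls. When the 8 female libraries were fitted alone, no gene passed (lowest edgeR adjusted p = 0.0851, with 828 of 9188 genes at an unadjusted p under 0.05), and the 6 deeper female libraries alone gave 25. A fit that took the range of reads per UMI as a factor called 100 genes (0.913%), 51 of them among the 293. All 293 kept their sign there, again in the libraries from which they had been chosen.

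**Figure D2:**
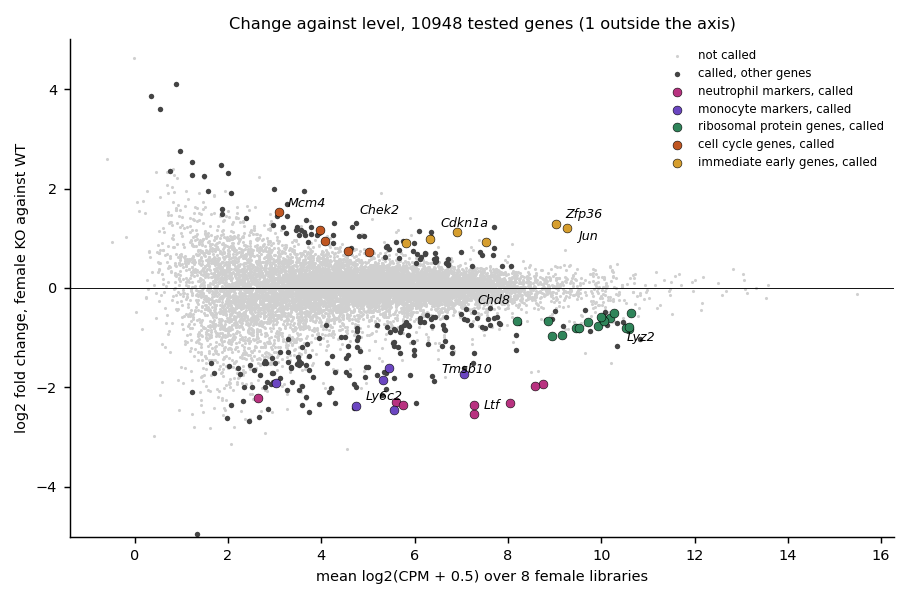
Log2 fold change of female KO against WT against mean log2(CPM + 0.5) over the 8 female libraries, 1 point for each of 10948 tested genes and larger coloured points for called members of 5 groups. Neutrophil and monocyte markers lie lowest among the coloured groups, ribosomal protein genes lie at high level with small falls, and the called cell cycle and immediate early genes lie above 0.

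Called genes were chosen by the p-value of this contrast, so the size of their change and the separation of their libraries are given as a description. The median size of change was 1.06 on the log2 scale among the 93 that rose and 1.26 among the 200 that fell, against 0.23 over all tested genes. None of the genes that rose was an annotated pseudogene, while 31 of the 200 that fell were (15.5%, against 3.22% of all tested genes). They included processed copies of ribosomal protein genes such as Rpl17-ps5 and Rpsa-ps10, and since near-identical copies share reads, their values are uncertain as single genes. All 4 KO libraries lay above all 4 WT libraries for 65 of the 93, beside 2.48% of all tested genes, and below them for 104 of the 200, beside 2.84%. Over all tested genes the groups did not overlap in 582 (5.32%). Most called genes fell, so neighbours can fall together without a link, and no share for random pairs was computed. Of 20 pairs of consecutive called genes under 50000 bases apart on a chromosome, 8 fell together, 2 rose together and 10 went in opposite directions. Among those that fell together were Ly6c2, I830127L07Rik and Ly6g on chromosome 15, H2-Ab1, H2-Aa and H2-Eb1 on chromosome 17, and S100a11 and S100a10 on chromosome 3. Opposite pairs included Rps16 (-0.94) and Zfp36 (1.29), and Cdt1 (0.95) and Aprt (-0.74). Counts cannot tell such genes apart where their transcript ends are nearly identical, as in the Ly6 family.

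The steadiest calls were few. Of 22 alternative fits of the female contrast no called gene passed in more than 20, and 7 passed in 20, namely Lsp1, Tmsb10, Ccdc163, Lyz2, Evi2b, Srgn and E230029C05Rik. All of them failed with the female libraries alone, where the spread came from those 8 libraries and was larger than over all (23.9% against 17.8%). The remaining failure was in the 6 deeper female libraries fitted alone for 5 of them. It was within the middle range of reads per UMI (1 female WT library) for Tmsb10 and within the high range (1 female KO library) for Ccdc163. In each of these 7 genes the KO and WT libraries did not overlap. At least 15 of the 22 fits called 66 of the 293 genes.

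Lsp1, an F-actin binding protein of leukocytes, led the list by p-value. It was at 211, 225, 186 and 207 CPM in KO and at 470, 398, 311 and 433 CPM in WT (chromosome 7, 142460809 to 142494867, GRCm38). Every KO library lay well under the lowest WT library, and the KO values were close to each other. The log2 fold change was -0.95 ± 0.14, 1.93-fold lower (edgeR adjusted p = 0.00231), and -0.86 without the 2 shallow libraries. Tmsb10, which encodes the actin monomer binding thymosin beta 10, was at 43.7, 31.1, 58.2 and 49.4 CPM in KO and 278, 116, 138 and 156 CPM in WT (chromosome 6, 72957347 to 72958748). WT replicate 34 was the highest, and the groups stayed apart without it. Tmsb10 fell by 1.86 ± 0.27 on the log2 scale (edgeR adjusted p = 0.00231).

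Lsp1 and Tmsb10 belong to a list of 21 actin, calcium and membrane binding genes (Tmsb10, Crip1, Lsp1, annexins and S100 genes) that are high in blood-derived myeloid cells. Here 10 of the 21 fell, beside 1.83% of all tested genes, and none rose, with a median log2 fold change of -0.95 beside 0.01 over all tested genes. The list had been picked in earlier work on these same libraries, so its direction is no independent evidence. Crip1, a small LIM-domain protein, was at 103, 59.2, 86.5 and 73.4 CPM in KO and 320, 295, 113 and 234 CPM in WT. The highest KO library was just under WT replicate 31, which was the lowest WT library by far. Crip1 changed by -1.61 ± 0.25 (edgeR adjusted p = 0.00264). Anxa2, a membrane-binding annexin, was at 54, 31.7, 25.8 and 33.2 CPM in KO against 159, 113, 39.3 and 152 CPM in WT and changed by -1.75 ± 0.33 (edgeR adjusted p = 0.0088). S100a6, a calcium-binding protein, was at 136, 45.2, 85.5 and 68.5 CPM against 320, 225, 103 and 368 CPM. In both genes WT replicate 31 lay inside the KO range. S100a6 no longer passed without WT replicate 30 (edgeR adjusted p = 0.06), and the list then held 5 falls in place of 10 (0.403% of all tested genes). There were 9 falls without the shallow libraries, where 2.84% of all tested genes were called lower, and 7 with the range factor, where 0.539% were.

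Monocyte markers fell in the same libraries. Of 9 tested members 6 fell (Ly6c2, Napsa, Chil3, S100a6, Hp and Itga4), with a median of -1.72, beside 1.83% of all tested genes called lower. Only Ly6c2 and Napsa passed without WT replicate 30 and with the range factor, where 0.403% and 0.539% of all tested genes were called lower. In bulk RNA, fewer cells of a type and less RNA per cell cannot be told apart. Ly6c2, a surface protein of inflammatory monocytes, was at 10.3, 10.1, 12.9 and 15.4 CPM in KO and at 98.5, 68.8, 18.5 and 86.7 CPM in WT. The groups did not overlap, but WT replicate 31 was close to the KO libraries and far from its own group. Ly6c2 changed by -2.37 ± 0.40, 5.15-fold lower (edgeR adjusted p = 0.00497), and by -2.14 without the 2 shallow libraries and -2.17 without WT replicate 30. Napsa, an aspartic protease, was at 46.3, 20.8, 23.2 and 20.3 CPM against 82.8, 95.2, 39.9 and 79 CPM, with KO replicate 33 above WT replicate 31. Plbd1, a phospholipase B-like protein of myeloid granules, was at 30.9, 30.3, 35 and 33.8 CPM against 112, 77.6, 50.6 and 96 CPM. Its KO values hardly varied, and all WT libraries lay above them. Ccr2, the receptor that draws monocytes into tissue and a defining marker of them, was at 7.72, 14, 18.5 and 19.3 CPM in KO and 44.8, 62.4, 10.1 and 21.7 CPM in WT and did not pass (edgeR adjusted p = 0.229). The part of the summed monocyte level in these results was not tested.

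Neutrophil granule genes showed large folds and calls that rested on 1 library. Of 14 tested markers 8 fell (Ly6g, Ltf, Lcn2, Camp, Ngp, Mmp9, Retnlg and Wfdc21), beside 1.83% of all tested genes, with a median of -2.03. Without the shallow libraries 7 passed (2.84% of all tested genes). But none passed without WT replicate 30 (0.403% of all tested genes), where the median was -1.25. Ltf, which encodes the iron-binding granule protein lactoferrin, was at 226, 45.7, 49.4 and 68.2 CPM in KO and 410, 242, 88.2 and 1100 CPM in WT. KO replicate 33 lay above WT replicate 31, and WT replicate 30 alone held more Ltf than the other 3 WT libraries together. Ltf changed by -2.55 ± 0.58 (edgeR adjusted p = 0.0236) and by -1.55 without WT replicate 30 (edgeR adjusted p = 0.159). The antimicrobial Ngp was at 257, 215, 126 and 303 CPM against 835, 563, 236 and 1880 CPM, again with WT replicate 31 inside the KO range. S100a9, a calprotectin subunit and the most abundant marker of the list, did not pass (log2 fold change -1.5, edgeR adjusted p = 0.258), with 2420 CPM in KO replicate 33.

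Other large falls had the same profile over libraries. Padi4, which citrullinates histones in neutrophils, Cd177, a neutrophil surface protein, Pglyrp1, a peptidoglycan-binding granule protein, Hdc, the histamine-forming enzyme, Mmp9, a matrix protease, and Rasgrp2, a Rap activator of platelets and leukocytes, changed by -2.20 to -2.49. Pi16, a secreted peptidase inhibitor family member, was at 15.4, 2.52, 6.7 and 5.53 CPM in KO and 31.3, 24.8, 3.93 and 37.9 CPM in WT and changed by -2.05. C3, the central complement component, changed by -2.08 ± 0.49, and S100a11 by -2.16 ± 0.57. The haptoglobin gene Hp was at 30.9, 17.9, 11.8 and 35 CPM in KO and 143, 88, 29.8 and 251 CPM in WT. In Hp as in the others the lowest WT library was replicate 31 and the highest was replicate 30. Without WT replicate 30 none of these genes passed, with log2 fold changes of -1.22 (Hdc) to -2.05 (Rasgrp2), and none passed with the range factor. The neutrophil sum was highest in the same library, and its part in these falls was not tested.

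Lyz2, the lysozyme gene that activated microglia and blood myeloid cells share, was at 798, 797, 857 and 1080 CPM in KO and 2020, 2490, 1160 and 2320 CPM in WT (chromosome 10, 117277331 to 117282321). The highest KO library lay just under the lowest WT library, replicate 31. Lyz2 changed by -1.17 ± 0.18, 2.25-fold lower (edgeR adjusted p = 0.00295), and stayed called without each single female library, with adjusted p of at most 0.0158. Cst7, which encodes cystatin F and is one of the best known markers of disease-associated microglia, was at 23.2, 12.6, 11.3 and 13.8 CPM in KO and 26.9, 37.6, 46.1 and 29.4 CPM in WT. For this gene WT replicate 31 was the highest WT library, where for Lyz2 it was the lowest. Cst7 changed by -1.41 ± 0.26 (edgeR adjusted p = 0.00809).

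Among 28 tested disease-associated microglia genes 5 fell (Cst7, Lyz2, Axl, Lgals3 and Cd52), none rose, and the median was -0.14, beside 1.83% of all tested genes called lower and a median of 0.01. The falls were 2 without WT replicate 30 and 3 with the range factor, where 0.403% and 0.539% of all tested genes were called lower. Axl, a receptor tyrosine kinase for dying cells, was at 25.7, 44.3, 44.3 and 60.2 CPM in KO and 76.1, 78.4, 75.3 and 85.2 CPM in WT. The 4 WT libraries agreed within a narrow band, and all KO libraries lay below it. Axl changed by -0.75 ± 0.18 (edgeR adjusted p = 0.0286), and missed the threshold without WT replicate 30 (0.104) and with the range factor (0.066). Galectin-3, encoded by Lgals3, was at 162 CPM in KO replicate 33, 52.7 to 58.6 CPM in the other KO libraries and 88.2 to 228 CPM in WT, so its call (-1.3 ± 0.31, edgeR adjusted p = 0.0279) rested on 3 KO libraries. It was lost without WT replicate 30 (edgeR adjusted p = 0.113) and with the range factor (0.109). Of members that did not pass, Trem2, the lipid-sensing receptor of this program, had a log2 fold change of 0.11, Itgax of 0.31, Spp1 of 0.18 and the cathepsin gene Ctsd of -0.21. Apoe, the main lipid carrier of the brain, was at 3840, 3800, 4150 and 4940 CPM in KO and 4730, 6920, 3200 and 5910 CPM in WT and did not pass (edgeR adjusted p = 0.408).

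Alox5, Srgn and Evi2b fell with the groups apart. Alox5, the lipoxygenase that starts leukotriene synthesis, was at 38.6, 25.2, 32.4 and 33.2 CPM in KO and 58.2, 70.4, 61.8 and 84.4 CPM in WT. It changed by -1.16 ± 0.19 (edgeR adjusted p = 0.00307) and by -1.04 without WT replicate 30, still past the threshold (edgeR adjusted p = 0.0174). Srgn, the granule proteoglycan serglycin, was at 134, 206, 181 and 185 CPM against 266, 335, 326 and 266 CPM. Evi2b, a transmembrane protein of leukocytes, was at 23.2, 42.9, 46.9 and 50.7 CPM against 89.6, 96.8, 74.2 and 80.5 CPM. In these 3 genes WT replicate 31 stood with its own group, though in Evi2b it was the lowest WT library. In the monocyte and neutrophil markers above, WT replicate 31 stood near KO. The part of leukocyte transcripts in these 3 falls was not tested.

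MHC class II genes, which present peptides to CD4+ T cells, fell in several members. Of 11 tested members of the class II and costimulatory list 5 fell (Cd74, H2-Aa, H2-Ab1, H2-Eb1 and H2-DMa) and none rose, beside 1.83% of all tested genes called lower, with a median of -0.47. H2-Ab1, which encodes the beta chain of the I-A molecule, was at 610, 552, 570 and 522 CPM in KO and 947, 1450, 624 and 1010 CPM in WT (chromosome 17, 34257689 to 34269419). The KO libraries were close to each other, and WT replicate 31 was just above them. H2-Ab1 changed by -0.84 ± 0.20 (edgeR adjusted p = 0.0281). H2-DMa, which helps to load peptides, was at 437, 478, 442 and 401 CPM against 564, 721, 552 and 593 CPM, a smaller shift of -0.47 ± 0.12 with no overlap. Cd74, the invariant chain, was at 2390, 785, 1090 and 1160 CPM against 3180, 2980, 1990 and 2860 CPM, and KO replicate 33 lay above WT replicate 31. Its log2 fold change was -1.03, and -1.35 without the shallow libraries. The class II transactivator gene Ciita did not pass (log2 fold change -0.63, edgeR adjusted p = 0.268), nor did any of 17 tested MHC class I genes, whose most abundant member B2m had a log2 fold change of 0.06. Of the class II list 4 members passed without the shallow libraries, where 2.84% of all tested genes were called lower. With the range factor 3 passed (0.539%), and without WT replicate 30 none did (0.403%).

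Ribosomal protein genes fell by small amounts in many members. Of 78 tested cytosolic members 17 fell and none rose, beside 1.83% of all tested genes called lower. The median was -0.46, and 69 of the 78 had values below 0, as had 5345 of all 10948 tested genes. Rplp0, a stalk protein of the large subunit, was at 970, 821, 817 and 769 CPM in KO and 1250, 1420, 1360 and 1280 CPM in WT. The WT libraries lay in a narrow band above all KO libraries. Rplp0 changed by -0.66 ± 0.12 (edgeR adjusted p = 0.00809). Rpl28 was at 798, 676, 802 and 706 CPM against 1480, 1190, 1210 and 1170 CPM. All WT libraries were again higher than all KO libraries. Rps14 changed by -0.80 ± 0.15 (edgeR adjusted p = 0.00809).

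The summed ribosomal level moved with the reads per UMI as well as with genotype. In the high range KO replicate 33 held 91000 CPM and the 3 WT libraries 83000 to 93300 CPM, so no difference was seen there. In the middle range the 2 KO libraries held 60500 and 64000 CPM and WT replicate 39 held 78900 CPM, while male libraries of that range held 53600 to 62200 CPM. In the low range KO replicate 16 held 50200 CPM beside 48900 to 57400 CPM in males. Without the 2 shallow libraries 45 of the 78 genes fell, where 2.84% of all tested genes were called lower. Without WT replicate 30 there were 6 (0.403%), and with the range as a factor 6 (0.539%), with a median of -0.21. The part of the range in this result was not tested.

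Nuclear genes of oxidative phosphorylation were close to the rest. Of 78 tested members 3 fell (Ndufs3, Ndufb7 and Cox8a), which is 3.85% beside 1.83% of all tested genes called lower, and the median was -0.13. Cox8a, a subunit of cytochrome c oxidase, was at 129, 119, 152 and 130 CPM in KO and 240, 214, 246 and 218 CPM in WT. Both groups were tight and far apart. Cox8a changed by -0.79 ± 0.17 (edgeR adjusted p = 0.0144). Ndufb7, a subunit of complex I, changed by -0.80 ± 0.16 (edgeR adjusted p = 0.0124), with KO replicate 33 at 196 CPM just above WT replicate 31 at 195 CPM. None of 75 mitochondrial ribosomal protein genes and none of 6 tested mitochondrially encoded transcripts passed. The latter summed to 700 to 2790 CPM in KO and 963 to 9190 CPM in WT, and all 6 had values below 0, with a median of -1.55 (-0.72 without the shallow libraries). The lowest p among them was that of mt-Cytb, which encodes cytochrome b, at 594, 519, 778 and 392 CPM in KO and 2660, 1660, 566 and 790 CPM in WT (edgeR adjusted p = 0.0657), with WT replicate 31 inside the KO range.

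Replication genes were among the rises. E2F factors drive such genes at the start of S phase, the MCM proteins form the ring helicase that unwinds DNA, and Cdt1 loads it. Short stretches of the promoters are shown for 4 called genes in which 1 of the words TTTGGCGC, TTTCCCGC, TTTGCCGC or TTTCGCGC, searched on both strands as E2F-type words, was present from 250 bases before to 50 after the RefSeq start on GRCm38.p6. Capitals mark the word, and the stretches are chr1:128359798-128359825 on the minus strand (Mcm6), chr8:122568037-122568064 (Cdt1), chr7:13278842-13278869 (Lig1) and chr5:110839821-110839848 (Chek2), the last 3 on the plus strand.
Mcm6: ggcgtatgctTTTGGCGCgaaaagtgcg
Cdt1: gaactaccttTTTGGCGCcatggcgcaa
Lig1: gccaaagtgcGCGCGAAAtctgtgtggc
Chek2: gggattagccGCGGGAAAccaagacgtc
The words were found in 7 of 75 called-higher genes with a window (9.33%), in 4 of 127 called-lower genes (3.15%) and in 400 of 8278 tested genes (4.83%). The window of Mcm2 held none of them, and Mcm4 had no window. The words were chosen after the genes were known, and a match is a description of letters only.

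Of 32 tested cell cycle genes 5 rose (Mcm2, Mcm4, Mcm6, Cdt1 and Lig1) and none fell, beside 0.849% of all tested genes called higher, with a median of 0.10. All 5 act at or before DNA synthesis. Mcm2 was at 20.6, 21, 22.7 and 26.4 CPM in KO and 8.96, 12.8, 8.99 and 10.1 CPM in WT (chromosome 6, 88883474 to 88898780). The KO values were all above 20 CPM and the WT values all below 13, and the shallow libraries stood with their groups. Mcm2 changed by 1.16 ± 0.23, 2.23-fold higher (edgeR adjusted p = 0.00986). Mcm4 was at 15.4, 11.8, 17.5 and 11.1 CPM against 6.72, 4.8, 5.62 and 2.32 CPM, a change of 1.53 ± 0.32 (edgeR adjusted p = 0.0147), though a level of 2.32 CPM in WT replicate 30 stands for few UMIs. Lig1, the ligase that joins Okazaki fragments, was at 48.9, 40.7, 35.5 and 41.8 CPM against 26.9, 21.6, 26.4 and 24.8 CPM. All KO libraries of Lig1 lay above all WT libraries. Cdt1 was at 18, 26.6, 18.5 and 26.1 CPM against 13.4, 10.4, 14.1 and 10.8 CPM. The proliferation genes Mki67 and Top2a did not pass, with log2 fold changes of -0.57 and -0.50, and WT replicate 30 held the highest level of both (28.6 and 21.7 CPM). All 5 rises passed without the shallow libraries, where 1.33% of all tested genes were called higher. Only Mcm2 passed without WT replicate 30 (0.233%), and none passed with the range factor (0.374%).

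Chek2 and Cdkn1a, which act when DNA is damaged, were also called. Chek2, a kinase that relays DNA breaks to p53, was at 30.9, 52.2, 38.1 and 43.6 CPM in KO and 20.2, 15.2, 20.8 and 13.9 CPM in WT (chromosome 5, 110839979 to 110874145). Every KO library lay above every WT library, with the lowest KO value in the shallow library. Chek2 changed by 1.32 ± 0.21, 2.49-fold higher (edgeR adjusted p = 0.00303). Cdkn1a, which encodes the cyclin-dependent kinase inhibitor p21 and is the classic p53 target, was at 103, 132, 138 and 106 CPM against 51.5, 61.6, 45 and 65 CPM (chromosome 17, 29090976 to 29100727). The groups were far apart, and the shallow libraries were inside their groups. Cdkn1a changed by 1.12 ± 0.18 (edgeR adjusted p = 0.00295). Both genes stayed called without WT replicate 30 and with the range factor (edgeR adjusted p = 0.0397 for Chek2 and 0.036 for Cdkn1a).

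Cdkn1a was the only call among 26 tested p53 targets and Trp53, beside 0.849% of all tested genes called higher. The list's median was 0.26. Trp53 was at 43.7, 70.4, 78.8 and 59.9 CPM in KO and 71.7, 92, 110 and 99.1 CPM in WT and missed the threshold (log2 fold change -0.53, edgeR adjusted p = 0.0523). Mdm2, the ubiquitin ligase that p53 induces, did not pass either (log2 fold change 0.38, edgeR adjusted p = 0.414). Mutyh, a glycosylase that repairs oxidised DNA, was at 20.6, 18.2, 16 and 18.1 CPM against 2.24, 8, 2.81 and 7.74 CPM, where 2.24 CPM in WT replicate 34 is 1 UMI. It changed by 1.69 ± 0.34 (edgeR adjusted p = 0.0124). Ccdc163, a coiled-coil gene in the same region of chromosome 4 (116708509 to 116751206, with Mutyh at 116807723 to 116819440), was at 90.1, 110, 112 and 99.8 CPM against 35.8, 41.6, 46.1 and 59.6 CPM. The KO libraries were tight and well above all WT libraries. Ccdc163 changed by 1.15 ± 0.17 (edgeR adjusted p = 0.00231).

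Immediate early genes, which cells switch on within minutes of a stimulus or of handling, rose in some members. Of 13 tested AP-1 factors 2 rose (Jun and Jund), of 27 other immediate early genes 4 rose (Egr1, Zfp36, Dusp6 and Ppp1r15a), and none fell, beside 0.849% of all tested genes called higher. The medians were 0.24 and 0.37. For 3 genes of this kind, promoter stretches with known stimulus-response words are shown, again from RefSeq on GRCm38.p6 and with the word in capitals. They are a CArG box, the serum response element core, in Zfp36 (chr7:28379267-28379296, minus strand), the cyclic AMP response word TGACGTCA in Ppp1r15a (chr7:45526263-45526290, minus strand) and the STAT word TTCNNNGAA in Socs3 (chr11:117969502-117969530, minus strand).
Zfp36: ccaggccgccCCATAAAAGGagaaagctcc
Ppp1r15a: gcctctccggTGACGTCAgcacagcgcc
Socs3: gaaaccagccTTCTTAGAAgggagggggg
Among tested genes with a window the CArG box was present in 1.49%, the cyclic AMP word in 3.68% and the STAT word in 7.92%. Among called-higher genes the shares were 2.67%, 1.33% and 6.67%. The windows of Jun, Jund and Dusp6 held none of them. Egr1 was not looked at singly.

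Jun, the core AP-1 subunit, was at 715, 1300, 877 and 941 CPM in KO and 327, 404, 393 and 532 CPM in WT (chromosome 4, 95049034 to 95052222). The lowest KO library was above the highest WT library, and the spread among KO libraries was wide. Jun changed by 1.21 ± 0.18, 2.32-fold higher (edgeR adjusted p = 0.00264). Egr1, a zinc finger factor, was at 149, 247, 133 and 175 CPM against 96.3, 71.2, 71.4 and 95.2 CPM. Jund was at 237, 291, 309 and 195 CPM against 139, 154, 97.8 and 156 CPM. In both of them the groups were apart. Zfp36, which destabilises Tnf mRNA, was at 479, 1240, 895 and 944 CPM against 231, 623, 207 and 389 CPM, with the shallow KO library below WT replicate 39. It changed by 1.29 ± 0.27 (edgeR adjusted p = 0.0127).

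KO replicate 16 held the highest level of Jun, Egr1, Zfp36 and Dusp6 and the lowest reads per UMI of the female libraries. Socs3, a feedback inhibitor of cytokine signalling, was at 183, 189, 136 and 154 CPM against 89.6, 121, 82.6 and 101 CPM and changed by 0.73 ± 0.17 (edgeR adjusted p = 0.0236). Ppp1r15a, which encodes the stress phosphatase subunit GADD34, was at 121, 93.9, 65.9 and 67.9 CPM against 15.7, 56, 39.3 and 53.4 CPM. The shallow libraries held both the highest and the lowest of these values, and without them the gene missed the threshold (edgeR adjusted p = 0.0542). Members that did not pass include Fos (log2 fold change 0.64, edgeR adjusted p = 0.211), Junb (0.77), Fosb (0.85), Ier2 (0.31) and Atf3 (0.24). Without WT replicate 30, Jun, Jund, Egr1 and Zfp36 still passed, where 0.233% of all tested genes were called higher. With the range factor (0.374%) Jun alone did among AP-1 and the other immediate early genes.

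**Figure D3:**
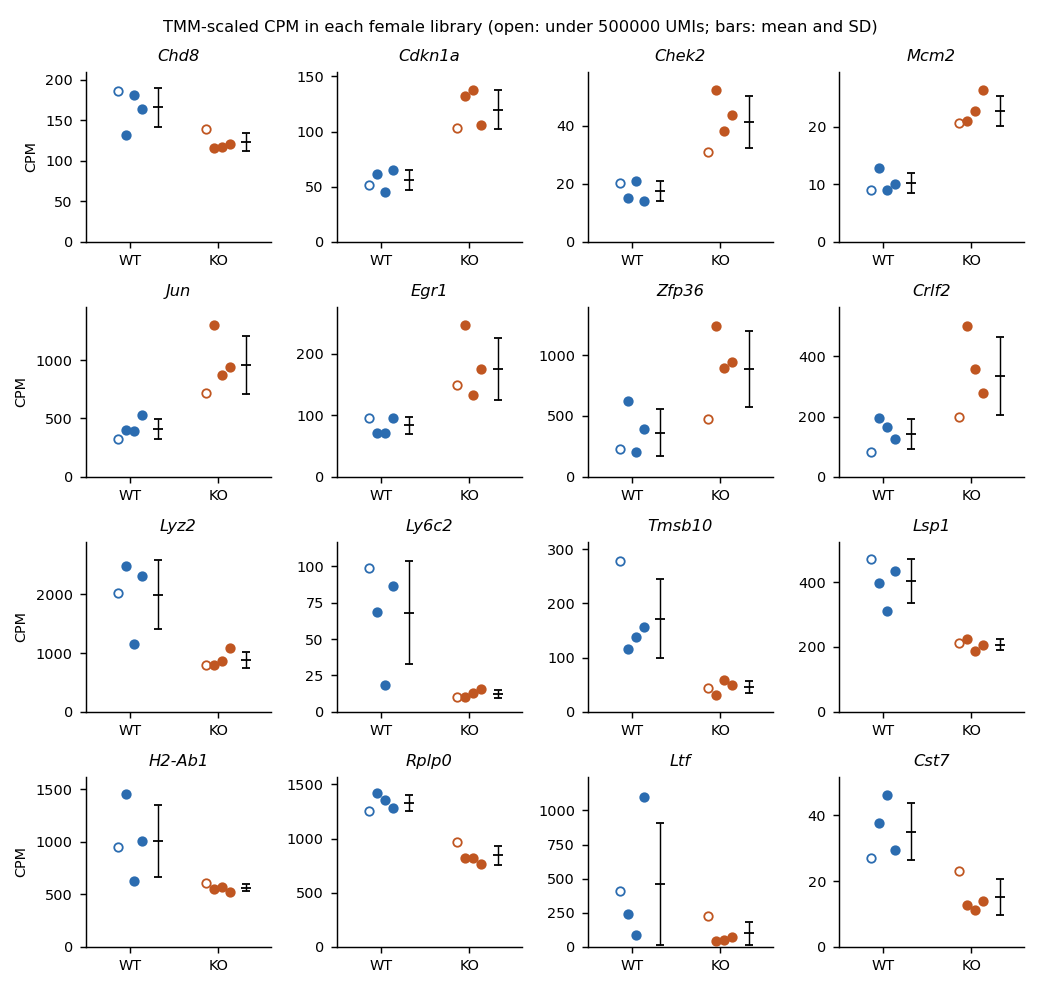
TMM-scaled CPM of 16 genes in each female library (WT blue, KO orange, open for the 2 libraries under 500000 UMIs), with the mean and SD of 4 libraries beside each group. Cdkn1a, Chek2, Mcm2 and Jun show KO libraries above all WT libraries, while Ltf and Ly6c2 show 1 WT library near the KO values.

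Further rises were spread over functions. Crlf2, a receptor subunit for the cytokine TSLP, was at 198, 502, 359 and 280 CPM in KO and 82.8, 195, 167 and 125 CPM in WT. In each group the shallow library was the lowest, and the groups were narrowly apart. Crlf2 changed by 1.22 ± 0.22 (edgeR adjusted p = 0.00758). Prss36, a serine protease, was at 23.2, 38.4, 43.3 and 44.8 CPM against a tight 15.7, 18.4, 15.7 and 17.8 CPM. Pdcd1, which encodes the inhibitory receptor PD-1, was at 7.72, 27.8, 22.1 and 21.8 CPM against 6.72, 12, 5.62 and 10.1 CPM and changed by 1.36 ± 0.29 (edgeR adjusted p = 0.0153). Its shallow KO library, at about 3 UMIs, lay inside the WT range.

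Zbtb3, a zinc finger gene, was at 12.9, 11.5, 19.6 and 12.9 CPM in KO and 2.24, 8.8, 5.06 and 3.1 CPM in WT, with no overlap (log2 fold change 1.44, edgeR adjusted p = 0.034). Enpp4, an ectonucleotidase family member, changed by 1.22 (edgeR adjusted p = 0.0417) and the membrane protein gene Ermap by 1.17 (edgeR adjusted p = 0.0301), both with KO replicate 33 under WT replicate 39. Angptl7, a secreted angiopoietin-like protein, changed by 1.3 ± 0.26 (edgeR adjusted p = 0.0109), and Zfp385c, a zinc finger gene, by 1.23 ± 0.24 (edgeR adjusted p = 0.00986). Both showed all KO libraries above all WT libraries. Amer2, an APC-binding regulator of Wnt signalling, was at 12.9, 24.7, 10.8 and 18.4 CPM against 2.24, 7.2, 3.93 and 10.8 CPM. Hspb1, a small heat shock protein, was at 33.5, 16, 24.7 and 11.4 CPM against 0, 7.2, 3.93 and 4.65 CPM, and it missed the threshold without the shallow libraries (edgeR adjusted p = 0.0702). Drg1, a GTP-binding protein, was at 5.15, 39.3, 24.7 and 14.4 CPM against 11.2, 12, 10.1 and 8.52 CPM. KO replicate 33 was the lowest of all 8 libraries there, and the call (log2 fold change 1.23, edgeR adjusted p = 0.0413) came from the other 3.

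Many programs of microglia held no call or a single one. Over all tested genes 2.68% were called, so short lists can hold no call at that share alone. Among the 37 microglial identity genes only Olfml3, an extracellular matrix protein, passed (136, 91.1, 105 and 103 CPM in KO against 166, 129, 149 and 166 CPM in WT, log2 fold change -0.52, edgeR adjusted p = 0.0348), with KO replicate 33 above WT replicate 39. The median of the list was 0.02. Log2 fold changes were 0.49 for P2ry12, the ADP receptor that guides process movement, 0.16 for Tmem119 and -0.52 for the fractalkine receptor gene Cx3cr1, none past the threshold. Cst3 was at 83500 CPM in KO replicate 33 against 31000 to 35300 CPM in the other KO libraries and 43900 to 53500 CPM in WT.

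None of 36 interferon response genes passed, beside 2.68% of all tested genes called in either direction. The lowest p belonged to Ifitm3, an antiviral membrane protein, at 203, 52.4, 111 and 89.3 CPM in KO and 300, 243, 131 and 231 CPM in WT (edgeR adjusted p = 0.0664). The related Ifitm2 was not on that list and was called lower. None of 15 chemokines passed, where Ccl3 came nearest at 82.3, 260, 226 and 232 CPM against 123, 144, 112 and 96 CPM (edgeR adjusted p = 0.0763). Ccl3 passed without the shallow libraries (edgeR adjusted p = 0.0077), and KO replicate 33 was the only KO library inside or under the WT range. Likewise no member passed among 15 inflammatory cytokine and inflammasome genes, 9 purinergic, 20 Toll-like receptor, 20 Wnt, 9 CHD remodeler, 45 histone methylation, SWI/SNF and cohesin, 52 autism risk, 37 proteasome, 20 glycolytic, 19 cholesterol or 43 lysosomal genes. Medians of these 11 lists were between -0.17 and 0.09. The members of lowest p included Tnf (0.90), the adenosine receptor gene Adora1 (2.22, at no more than 10.3 CPM in any library), Tlr3, a receptor of double-stranded RNA (-1.58), the proton pump subunit gene Atp6v0d1 (0.40), the proteasome subunit gene Psmd7 (0.35) and Scap, the escort protein of sterol sensing (0.38), with edgeR adjusted p of at least 0.0763 in these 6 genes. Tgfbi, a TGF-beta induced matrix protein, fell (log2 fold change -0.59, edgeR adjusted p = 0.0372) as the only call among 18 TGF-beta signalling genes.

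**Figure D4:**
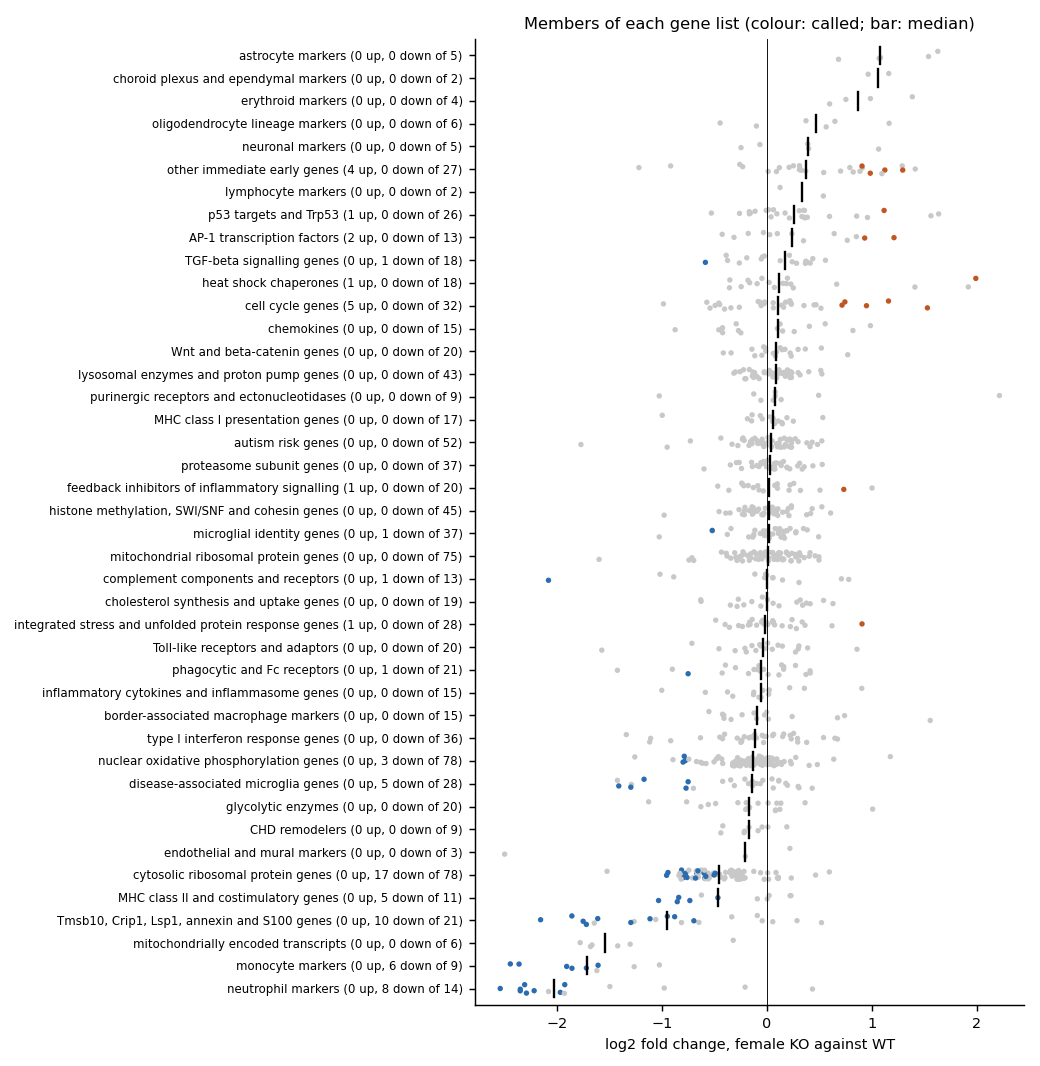
Log2 fold change of each tested member of the gene lists (female KO against WT), with called members in orange (higher) or blue (lower) and a bar at the list median. Neutrophil, monocyte and Tmsb10 and S100 genes have the lowest medians with called members (-2.03, -1.72 and -0.95), and most other medians lie close to 0.

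The female effect was set beside the male effect of the same fit, in which 683 genes (6.24%) were called. Of the 93 genes that rose in females 81 had a male value above 0 and 48 were also called higher in males, beside 3.37% of all tested genes called higher there. Of the 200 that fell, 163 had a male value below 0 and 45 were called lower in males, beside 2.87%, while 2 were called in the opposite direction. Over all tested genes, 6829 of 10948 had the same direction in both sexes. Male log2 fold changes were 1.28 for Cdkn1a, 1.27 for Chek2, 0.94 for Mcm2, 1.24 for Crlf2, 1.49 for Pdcd1, 1.66 for Ccdc163, -1.25 for Alox5 and -1.19 for Cst7, all past the threshold (edgeR adjusted p of at most 0.00154). The female minus male differences of these 8 genes did not pass (edgeR adjusted p of at least 0.481).

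The difference between the sexes, tested for every gene, passed for 26 genes (0.237%), 5 with a higher value in females (0.0457%) and 21 with a lower one (0.192%). Among genes described here, Jun was at 0.00 in males against 1.21 in females (difference 1.21, edgeR adjusted p = 0.0427), Egr1 at -0.15 against 1.12 (edgeR adjusted p = 0.0469) and Socs3 at -0.32 against 0.73 (edgeR adjusted p = 0.0448). In mean level of these genes both male groups lay above female KO, and female WT was lowest. Mean Jun was 1490 CPM in male KO, 1500 CPM in male WT, 959 CPM in female KO and 414 CPM in female WT. In the same order, Egr1 was at 232, 257, 176 and 83.5 CPM and Socs3 at 218, 272, 165 and 98.4 CPM. Lyz2 was at 0.19 in males against -1.17 (edgeR adjusted p = 0.0147), Plbd1 at 0.38 against -1.31 (edgeR adjusted p = 0.0147), and Napsa, Crip1, Axl and H2-Eb1 differed in the same direction. For the leukocyte markers the male libraries held 1060 to 1340 CPM of neutrophil and 72.7 to 142 CPM of monocyte markers in KO, and 931 to 1850 and 72.9 to 125 CPM in WT. The monocyte sums were below those of every female library, while the neutrophil sums overlapped with female KO replicates 16 and 1.

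Of the 26 differences 13 were in genes with no call in females, and 12 of these 13 were called in males. Cbr2, a carbonyl reductase of border-associated macrophages, was at 43.7, 49.9, 40.7 and 51 CPM in female KO and 78.4, 63.2, 27.5 and 89.8 CPM in female WT, with no call (log2 fold change -0.41 ± 0.26), and at 42.0 ± 6.71 (SD, n = 5) against 7.44 ± 2.11 CPM (n = 5) in males. Female KO libraries were thus near the level of male KO. The female WT libraries lay above every male KO library, except replicate 31, which lay below every one. All female libraries of both genotypes lay above every male WT library. Pf4, Pla2g7, Olfm1 and Apoe had male log2 fold changes of 1.84, 2.40, 2.17 and 1.06 and female values of -0.10, -0.41, -0.82 and -0.31. Hpca, which encodes the neuronal calcium sensor hippocalcin, was at 0, 1.4, 1.55 and 1.54 CPM in female KO and 8.96, 6.4, 3.37 and 3.1 CPM in female WT, and its value was -1.75 in females (edgeR adjusted p = 0.114) and 2.29 in males. For Olfm1 as for Hpca all female KO libraries lay below all female WT libraries. Hist1h1c, a linker histone gene, was at 87.5, 121, 85 and 112 CPM in female KO against 58.2, 91.2, 61.3 and 95.2 CPM in female WT, and its male value was -1.25. In the 15 tested border-associated macrophage markers 0 passed in females, beside 2.68% of all tested genes called there. In males 9 rose, beside 3.37% of all tested genes called higher. The count of 26 ran from 2 (Cbr2 and Hist1h1c, without female WT replicate 30) to 84 (without female WT replicate 31) when single libraries were left out, so most single calls of a difference rest on few libraries.

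**Figure D5:**
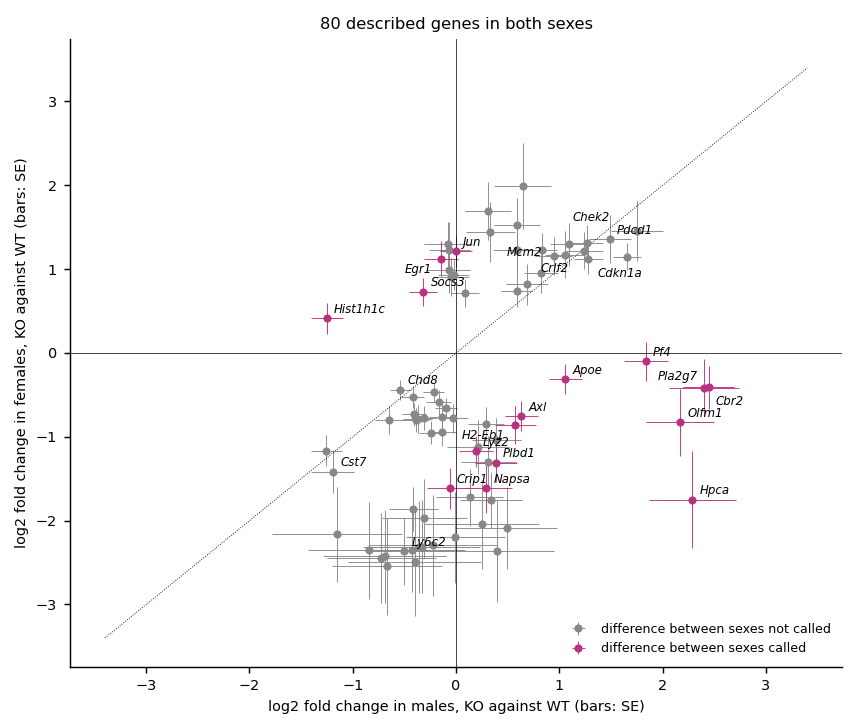
Log2 fold change in females against that in males for the 80 described genes, with SE bars, the line of equality and, in magenta, the 16 genes whose female minus male difference passed. Cdkn1a, Chek2, Mcm2 and Crlf2 lie near the line, Jun, Egr1 and Socs3 lie above 0 in females and at or below 0 in males, and Cbr2, Pf4, Pla2g7 and Olfm1 lie far to the right.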

How the data were processed

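RNA of purified brain microglia was measured in 18 libraries, 8 of them female. The deposited data are raw counts in 2 tables, 1 of reads and 1 corrected by the authors for unique molecular identifiers (UMIs). Cutadapt, STAR, HTSeq and the build mm10 are named in the submitters' processing notes. Their versions, the annotation release, the strand setting and the UMI method are not stated there. Each table held 16 further columns that match no sample used here, and these were not used. Symbols and coordinates came from GENCODE M21 (GRCm38) for 52133 of 55414 identifiers, and promoter stretches from RefSeq (GRCm38.p6).

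UMI-corrected counts were filtered with filterByExpr by group (minimum count 10), scaled by TMM and fitted with 1 mean per group over all 18 libraries in edgeR 4.0.16 (R 4.3.3). Contrasts were tested with its quasi-likelihood test, and the threshold for a call was 0.05 after Benjamini-Hochberg adjustment. The SE is the log2 fold change divided by the square root of F. The pipeline was tested on simulated data. DESeq2 1.42.0, limma 3.58.1, other scalings and filters, read counts, the reads-per-UMI range, and leaving out libraries were alternatives.

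Genes named were drawn from Chd8, the 15 largest rises and the 15 largest falls (mean log2 CPM not under 3, leaving out pseudogenes and predicted genes), up to 4 called members, the most abundant member and, in lists without calls, the member of lowest p of each list, and the 10 lowest p of the sex difference. Most of the members named for level alone, and some of lowest p or called, are not printed. Other genes were named after their values were seen, among them Ccdc163, Alox5, Evi2b, Srgn, Mcm6, Ccr2, Ciita, Trp53, Mdm2, Mki67, Top2a, Trem2, Itgax, Spp1, Fos, Fosb, Junb, Ier2, Atf3, Tmem119 and Cx3cr1, and so were the remaining members behind counts of 10 or fewer. The comparison, the gene lists and the promoter words were chosen with earlier results of these data known.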

Additional observations from a re-analysis of the deposited data

Results flagged for a closer look

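In 12 of 192 sets of 4 female libraries examined, 1 library stood apart by Dixon's criterion at its 95% critical value for 4 samples. Chance gives about 1 in 20. KO replicate 33 was the highest KO library for Napsa (46.3 CPM), Ltf (226 CPM), Rasgrp2 (18 CPM), Mmp9 (79.8 CPM), Hdc (18 CPM), Lgals3 (162 CPM) and the microglial identity sum (176000 CPM), and the lowest for Hpca (0 CPM). WT replicate 30 was the highest WT library for Hdc (64.3 CPM). WT replicate 34 was the highest for Rpl28 (1480 CPM) and for the neuronal marker sum (127 CPM). WT replicate 39 had the lowest reads per UMI of its group (2.96).

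The KO effect differed between the sexes, by a test of the difference itself, in 16 described genes. The female minus male difference in log2 fold change was -1.90 for Napsa, -1.69 for Plbd1, -1.55 for Crip1, -1.36 for Lyz2, -1.39 for Axl, -1.43 for H2-Eb1, 1.21 for Jun, 1.27 for Egr1, 1.05 for Socs3 and 1.66 for Hist1h1c. It was -2.86 for Cbr2, -1.94 for Pf4, -1.37 for Apoe, -2.82 for Pla2g7, -2.99 for Olfm1 and -4.03 for Hpca.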

How the results depend on the processing

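The count of 293 called genes became 532 with no filter on low counts, 136 on read counts and 100 when the range of reads per UMI was a factor. It became 462 without the 2 shallow libraries, 0 with female libraries alone (828 genes at an unadjusted p under 0.05) and 71 to 680 with 1 library left out. Alternatives added after seeing the data gave 25 (the 6 deeper female libraries alone) and 171 (without WT replicates 30 and 34 and KO replicate 33). DESeq2 called 352 and limma 287. Scaling by library total called 292, of which 45.2% were higher against 31.7% with TMM, and moved the median of all genes from 0.01 to 0.09 on the log2 scale. Within the high range, with 1 KO library, 417 genes passed, of which 20 were among the 293, with a median of all genes at -0.155.

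The count of differences between the sexes (26) became 238 with no filter, 10 on read counts, 83 with DESeq2, 3 without those 3 libraries, and 2 to 84 with 1 library left out. Genes whose groups do not overlap (582) became 2031 without the shallow libraries and 801 to 1533 with 1 library left out, where fewer libraries make overlap rarer by construction. Chd8 (-0.44) passed with DESeq2 (-0.44, adjusted p = 0.021) and ran from -0.54 to -0.38 with 1 library left out. It was -0.24 with the range factor, not past the threshold, and -0.15 within the middle range, which held 1 female WT library. For other changes of a count the cause was not tested.

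Signs changed within the high range for Drg1 (-0.91), Ccl3 (-0.40) and Pla2g7 (0.26). They changed without those 3 libraries for Cbr2 (0.11), Pf4 (0.10) and Pla2g7 (0.10), and for Pf4 without WT replicate 39 (0.05) or 30 (0.07). With 1 library left out in turn these values ran from -0.71 to -0.13 for Cbr2, from -0.33 to 0.07 for Pf4 and from -0.74 to -0.12 for Pla2g7, and none of them was a called gene. Of the 70 called genes described, 69 kept their sign in every fit that tested them. Those fits share libraries with the fit that chose the genes, so kept signs are a description only. No paired analysis was possible because every library carries its own replicate number. Depth limits genes near 1 UMI in the 2 shallow libraries.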

Other observations

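Several called genes outside the lists concern myeloid surface and enzyme functions and were picked here after their values were seen. Ifitm2, an antiviral membrane protein, was at 10.3, 18.2, 26.8 and 27.9 CPM in KO replicates 33, 16, 1 and 7 and at 150, 99.2, 37.1 and 107 CPM in WT replicates 34, 39, 31 and 30, and fell by 2.04 on the log2 scale (edgeR adjusted p = 0.00497). Hcst, the signalling adaptor DAP10, was at 48.9, 40.9, 44.3 and 43.9 CPM against 78.4, 71.2, 66.9 and 79.7 CPM, 2 tight groups that did not overlap (edgeR adjusted p = 0.0117). Tspo, the outer mitochondrial membrane protein used as an imaging marker of activated microglia, was at 142, 149, 176 and 147 CPM against 253, 273, 189 and 241 CPM, with no overlap (edgeR adjusted p = 0.0141). Cybb, the catalytic subunit of the phagocyte NADPH oxidase, fell by 1.13 (edgeR adjusted p = 0.0477), with WT replicate 31 at 46.1 CPM inside the KO range. Among rises, Cbx5, the heterochromatin protein HP1 alpha, was at 12.9, 21.3, 33 and 21.5 CPM against 11.2, 12, 10.7 and 8.52 CPM (edgeR adjusted p = 0.0127), and Ripk3, a necroptosis kinase, at 7.72, 23.3, 28.3 and 26.1 CPM against 22.4, 6.4, 10.7 and 10.8 CPM, where the 2 shallow libraries went against the rest.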
